A study of Mus musculus with 12 samples.

Results

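The 52 genes described here encode the machinery of cell division: the cyclins and kinases that start mitosis, the spindle checkpoint, the chromosomal passenger complex, centromere and kinetochore proteins, spindle motors, cytokinesis proteins and condensin. They were taken by symbol from a list of mitotic genes, and are 52 of the 25097 genes in the deposited tables. The list was chosen with earlier results of these data known, so its shares beside all genes are a description. Each symbol matched 1 gene, and all 52 members had enough counts to be tested among 12115 genes. For the description they were put in 10 classes by role.

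RNA sequencing was done on G1E-ER-GATA-1 cells, a mouse erythroid precursor line without GATA-1 of its own. In its place the cells hold a fusion of GATA-1 and the hormone-binding part of the estrogen receptor, which estradiol activates, and the cells then mature along the erythroid path. There were 4 groups of 3 libraries: double mutant cells with altered cis-elements of Alas2, given 1 µM beta-estradiol and 1 mM 5-aminolevulinic acid (5-ALA) for 48 h; the same mutant cells given 1 µM beta-estradiol for 48 h; wild-type (WT) cells given 1 µM beta-estradiol for 48 h; and untreated WT cells. The product of Alas2 is the erythroid synthase of 5-ALA, from which heme is built, and 5-ALA in the medium bypasses that step. Cells of all 4 groups carry the fusion protein and grew with erythropoietin, Kit ligand, monothioglycerol and puromycin. The labels do not name the mutated elements or say whether the mutant cells are 1 clone or whether the replicates were separate cultures, so p-values measure the spread between these libraries, which may be technical. The untreated WT cells are listed at 0 h. Neither an untreated mutant group nor a WT group kept for 48 h without estradiol was analysed here.

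Mitosis is driven by CDK1 bound to cyclin B, which the CDC25 phosphatases activate. Aurora and Polo-like kinases build the spindle, kinetochores tie chromosomes to it, and the spindle checkpoint holds back the anaphase-promoting complex until every chromosome is attached. Maturing erythroid cells divide a limited number of times and then leave the cell cycle, and transcripts of mitotic genes are made mainly in G2 and mitosis of cycling cells.

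The libraries held 20309085 to 43548387 expected counts, and within a group they correlated across genes with Pearson's r of 0.99232 to 0.99488. CPM below are counts scaled to a common library size after TMM normalisation, and each triplet of values gives replicates 1, 2 and 3. The words rose and fell are used for an edgeR adjusted p below 0.05 over the 12115 genes. Alas2, the targeted gene, had 12.3 ± 0.237 CPM in mutant cells given both agents, 7.64 ± 2.2 CPM in mutant cells with estradiol, 4293 ± 15.1 CPM in WT cells with estradiol and 5.12 ± 0.767 CPM in untreated WT cells (SD, n = 3 each); its exons overlap those of Apex2. All 11 erythroid markers rose with estradiol in WT cells, and of 4 progenitor markers 3 fell and 1 rose, with sums of 92.2 to 95.1 CPM in WT cells with estradiol against 1238 to 1266 CPM in untreated WT cells. Of 7 mast cell and basophil markers 4 could be tested, and 3 fell and 1 rose. Cpa3 was at 1.28 ± 0.106 CPM in WT cells with estradiol against 139 ± 8.23 CPM in untreated WT cells, Cma1 rose to 0.684 ± 0.0365 CPM in WT cells with estradiol against 0 CPM in untreated WT cells (SD, n = 3 each), and Mcpt8 and Fcer1a were at 0 in every group. Of 8 megakaryocyte markers 6 were tested, 4 rose and 2 fell, and their sum was 1851 to 1874 CPM in WT cells with estradiol against 187.7 to 194.2 CPM in untreated WT cells, most of it Itgb3 in the treated cells. The part of these markers in the results below was not tested. Markers of granulocytes and macrophages summed to at most 3.72 CPM in any library, and those of lymphocytes to at most 2.34 CPM.

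The mitotic genes of WT cells were lower with estradiol nearly as a block. Of the 52 members, 51 fell and 1, Cdc25b, rose, in a comparison in which 46.4% of all genes tested fell, 43.3% rose and 89.7% did either. The libraries of the groups did not overlap for any of the 52, as for 90.2% of all genes tested. At least 2-fold falls were seen in 51 members, against 30.3% of all genes tested, and 41 members fell at least 8-fold, against 8.53% of all genes tested. The median log2 fold change of the members was -4.27, beside -0.03 for all genes tested. Their summed level was 704.9 to 712.5 CPM in the libraries of WT cells with estradiol, against 7577 to 7878 CPM in untreated WT libraries. Fewer dividing cells and less RNA of these genes per dividing cell cannot be told apart in bulk RNA. Nor can estradiol and 48 h of culture, since the untreated WT cells are listed at 0 h.

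**Figure D1:**
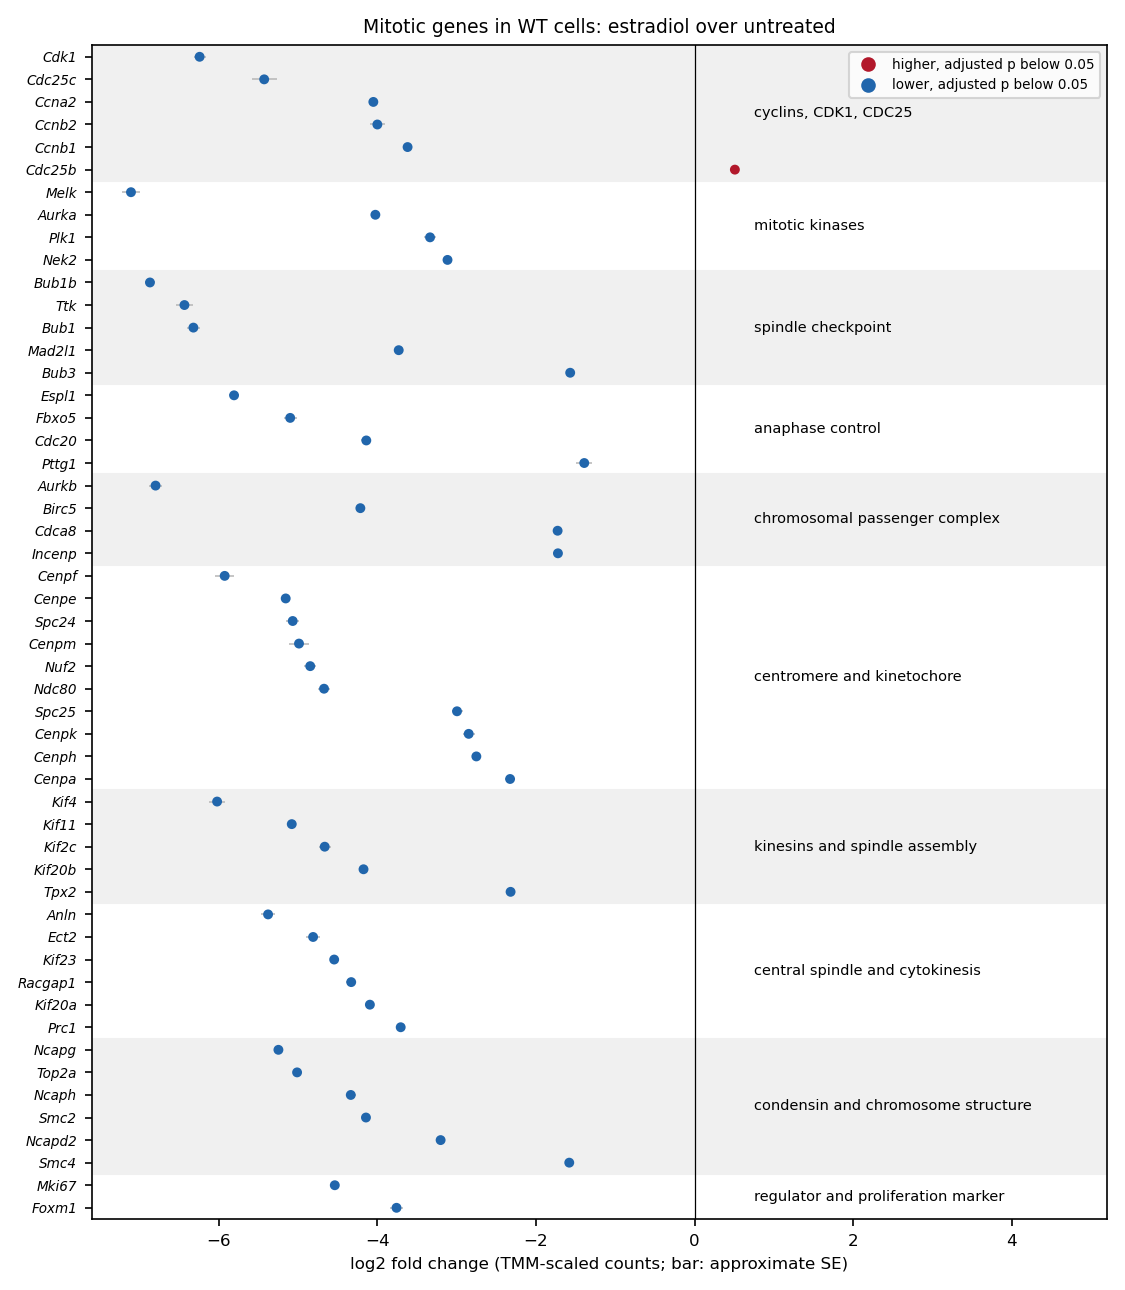
Log2 fold change of each mitotic gene in WT cells with estradiol over untreated WT cells, by role; points are fits over 3 libraries per group and bars the approximate SE. Members sit between -7.11 (Melk) and 0.51 (Cdc25b), and the chromosomal passenger complex alone spans -6.80 (Aurkb) to -1.72 (Incenp).

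Among the cyclins, CDK1 and its phosphatases, 5 of 6 fell. Cdk1, the kinase that drives entry into mitosis, had 1.34, 1.5 and 1.58 CPM in WT cells with estradiol, against 107, 107 and 118 CPM in untreated WT cells. The groups are far apart in every library, a 75.6-fold fall (log2 fold change -6.24 ± 0.07 SE, edgeR adjusted p = 1.21e-33). Cdc25c, a phosphatase that activates CDK1, fell, with a log2 fold change of -5.43 ± 0.16 (SE). Of the cyclins, cyclin A2 (Ccna2) fell 16.6-fold, cyclin B2 (Ccnb2) 16-fold and cyclin B1 (Ccnb1) 12.3-fold. Cyclin B1 was the most abundant transcript of untreated cells per length among the 52 members, at 454 ± 5.8 TPM there and 33.5 ± 1.2 TPM in WT cells with estradiol (SD, n = 3 each). The exception, Cdc25b, a phosphatase of CDK1-cyclin complexes at the start of mitosis, had 21.1, 21 and 19.1 CPM in WT cells with estradiol against 14.3, 13.7 and 15.1 CPM in untreated WT cells. Its groups do not overlap, and its rise was 1.42-fold (log2 fold change 0.51 ± 0.05 SE, edgeR adjusted p = 7.19e-10). Per length the group means lay closer, at 12.8 ± 1.23 TPM in WT cells with estradiol against 11.3 ± 0.117 TPM in untreated WT cells (SD, n = 3 each). Exons of Cdc25b overlap those of Spef1 in the annotation, and Spef1 fell (-1.37).

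All 4 mitotic kinases outside the other classes fell. Melk, a kinase of proliferating cells, showed the largest fall of any member: 0.489, 0.579 and 0.315 CPM in WT cells with estradiol against 63.9, 64.9 and 68.7 CPM in untreated WT cells, or 138-fold (log2 fold change -7.11 ± 0.11 SE, edgeR adjusted p = 7.96e-31). The treated libraries held 7 to 17 reads of it. Aurora A (Aurka), which works at the spindle poles, and Plk1, which acts from mitotic entry to cytokinesis, fell, with log2 fold changes of -4.03 ± 0.06 and -3.34 ± 0.08 (SE). The smallest fall of the class was that of Nek2, a kinase of centrosome separation, with 11.1, 12.5 and 13.1 CPM in WT cells with estradiol against 106, 103 and 107 CPM in untreated WT cells, a log2 fold change of -3.12 ± 0.05 (SE).

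The spindle checkpoint genes fell by unequal amounts. Bub1b, which binds and restrains CDC20, had 2.48, 2.38 and 1.67 CPM in WT cells with estradiol against 259.7, 259 and 261 CPM in untreated WT cells (log2 fold change -6.87 ± 0.07 SE, edgeR adjusted p = 4.09e-30). The checkpoint kinases Ttk and Bub1 also fell, with log2 fold changes of -6.43 ± 0.11 and -6.32 ± 0.08 (SE). Bub3, their partner at the kinetochore, was at 33.7% of its untreated level: 58.7, 59.3 and 60.1 CPM in WT cells with estradiol against 173, 174 and 180.3 CPM in untreated WT cells, a log2 fold change of -1.57 ± 0.03 (SE). Mad2l1, the checkpoint protein that blocks CDC20, lay between them at -3.73 ± 0.05 (SE).

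The genes that time anaphase also fell, all 4 of them. Espl1, the separase that cuts cohesin, had 2.22, 2.11 and 2.16 CPM in WT cells with estradiol against 121, 119 and 124 CPM in untreated WT cells, a log2 fold change of -5.81 ± 0.06 (SE). Pttg1, the securin that holds separase inactive, had 4.14, 4.56 and 3.87 CPM in WT cells with estradiol against 10.7, 10.9 and 11.6 CPM in untreated WT cells, a log2 fold change of -1.39 ± 0.10 (SE). Per length, Espl1 was below Pttg1 in WT cells with estradiol (0.49 ± 0.010 against 8.5 ± 0.945 TPM), whereas in untreated WT cells they were at 33.9 ± 0.0902 and 30.5 ± 1.14 TPM (SD, n = 3 each). Fbxo5, an inhibitor of the anaphase-promoting complex, and Cdc20, its mitotic activator, had log2 fold changes of -5.10 ± 0.08 and -4.14 ± 0.06 (SE).

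Members of the chromosomal passenger complex, which corrects faulty attachments and later guides cytokinesis, fell by very different amounts. Its kinase Aurora B (Aurkb) had 1.01, 0.749 and 1.35 CPM in WT cells with estradiol against 112, 111 and 115 CPM in untreated WT cells, a 111-fold fall (log2 fold change -6.80 ± 0.08 SE, edgeR adjusted p = 1.83e-33). Birc5 (survivin) fell, with a log2 fold change of -4.21 ± 0.06 (SE). The scaffold Incenp had 48.2, 48.2 and 48.7 CPM in WT cells with estradiol against 161, 156 and 161 CPM in untreated WT cells, a 3.3-fold fall, and Cdca8 (borealin) fell 3.31-fold. In all, 0.92% of the untreated level of Aurkb and 30.3% of that of Cdca8 were found in WT cells with estradiol.

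All 10 centromere and kinetochore members fell. Cenpf, a large kinetochore protein of G2 and mitosis, had 2.28, 1.26 and 1.71 CPM in WT cells with estradiol against 107, 108 and 107 CPM in untreated WT cells, a log2 fold change of -5.93 ± 0.12 (SE). Cenpa, the histone H3 variant that marks centromeres, had 14.7, 14.3 and 13.6 CPM in WT cells with estradiol against 74.8, 68.4 and 71 CPM in untreated WT cells, the smallest fall of the class (-2.33 ± 0.06 SE). The subunits of the NDC80 complex, which grips microtubules, fell unequally: the log2 fold change was -5.07 ± 0.08 for Spc24, -4.85 ± 0.08 for Nuf2, -4.67 ± 0.07 for Ndc80 and -2.996 ± 0.07 for Spc25 (SE). Of the inner kinetochore proteins, Cenpm, Cenpk and Cenph fell, with log2 fold changes of -4.99 ± 0.13, -2.85 ± 0.07 and -2.75 ± 0.05 (SE). Cenpe, a kinesin that carries chromosomes to the spindle equator, fell, with a log2 fold change of -5.16 ± 0.05 (SE).

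Spindle motors and cytokinesis proteins followed, 11 of 11 lower. Kif4, a chromosome-bound kinesin, had 1.31, 0.749 and 1.35 CPM in WT cells with estradiol against 72.9, 71.1 and 74.7 CPM in untreated WT cells, a log2 fold change of -6.02 ± 0.10 (SE). Tpx2, the activator of Aurora A, fell least of the spindle genes, with 35.1, 37.8 and 36.8 CPM in WT cells with estradiol against 182, 179.8 and 185 CPM in untreated WT cells (-2.32 ± 0.03 SE). Kif11, which pushes the spindle poles apart, Kif2c, which shortens microtubules, and Kif20b had log2 fold changes of -5.08, -4.66 and -4.17. In the cytokinesis class, anillin (Anln), which organises the contractile ring, had 1.83, 1.26 and 1.4 CPM in WT cells with estradiol against 61.2, 64 and 63.3 CPM in untreated WT cells, a log2 fold change of -5.38 ± 0.09 (SE). The smallest fall there was that of Prc1, which bundles microtubules of the central spindle, with 8.75, 7.8 and 8.87 CPM in WT cells with estradiol against 109, 107 and 114 CPM in untreated WT cells (-3.71 ± 0.05 SE). Between these extremes lay Ect2, the activator of RhoA, at -4.81, the centralspindlin subunits Kif23 and Racgap1 at -4.54 and -4.33, and Kif20a at -4.09.

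Condensin and chromosome structure genes fell in all 6 cases. Ncapg, a regulatory subunit, had 4.57, 4.67 and 5.45 CPM in WT cells with estradiol against 183, 181 and 189 CPM in untreated WT cells, a log2 fold change of -5.25 ± 0.05 (SE). Exons of Ncapg overlap those of Lcorl, which rose (0.87). Smc4, an ATPase arm of condensin, had 131, 133 and 133 CPM in WT cells with estradiol against 389.9, 382 and 410.0 CPM in untreated WT cells, a 2.99-fold fall. Its partner arm Smc2 fell 17.7-fold, and Ncaph and Ncapd2 had log2 fold changes of -4.33 and -3.20. Top2a, which untangles sister chromosomes, fell 32.3-fold. Foxm1, a transcription factor of G2 and mitosis genes, had 4.41, 4.39 and 3.42 CPM in WT cells with estradiol against 57, 55 and 55.3 CPM in untreated WT cells (-3.76 ± 0.08 SE), and the proliferation marker Mki67 had 30.4, 32.4 and 28.5 CPM against 707, 714 and 708 CPM (-4.54 ± 0.04 SE).

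The promoters of these genes hold shared sequence elements, shown here as a description. Whether these elements bear on the falls was not tested. RefSeq windows of 300 bases, from 250 before to 50 after an annotated start (GRCm38.p6), were found for 43 of the 52 members, 48 windows in all. Genes of G2 and mitosis are known for the cell cycle genes homology region (CHR), searched here as TTTGAA or TTCGAA, and for CCAAT boxes upstream of it. MuvB complexes, which repress these genes in resting cells, bind the CHR, and the factor NF-Y binds CCAAT. On either strand, 72.9% of the members' windows held a CHR match, beside 14.4% of 11645 windows of genes tested and 19.2% of all 32851 windows. A CCAAT match was in 79.2% of the members' windows, 39.3% of those of genes tested and 37.4% of all. Both stood in 64.6% of the members' windows, 6.1% of those of genes tested and 7.5% of all. The letters TTTNGCGC, a strict form of the E2F site, were in 6.2% of the members' windows, 2.5% of those of genes tested and 1.4% of all. These are matches of short letters in single windows, and windows of 1 gene with several starts can overlap.

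In the 6 stretches below, cut to 280 bases that end 30 bases after the start, matches to CHR and CCAAT are in capitals; ATTGG and TTCAAA are the same motifs on the other strand. They were picked to show the CDK1-cyclin genes beside the deepest fall, the member with the lowest percent of its untreated level in mutant cells (Bub1b), and the member that rose.
Cdk1 (ENSMUSG00000019942; chr10:69352883-69353162, minus strand): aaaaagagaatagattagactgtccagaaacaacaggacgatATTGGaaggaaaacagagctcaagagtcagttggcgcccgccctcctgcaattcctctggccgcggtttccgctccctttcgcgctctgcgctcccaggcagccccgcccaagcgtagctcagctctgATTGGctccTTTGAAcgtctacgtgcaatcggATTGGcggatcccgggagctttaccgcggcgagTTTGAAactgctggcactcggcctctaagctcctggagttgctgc
Ccnb2 (ENSMUSG00000032218; chr9:70421525-70421804, minus strand): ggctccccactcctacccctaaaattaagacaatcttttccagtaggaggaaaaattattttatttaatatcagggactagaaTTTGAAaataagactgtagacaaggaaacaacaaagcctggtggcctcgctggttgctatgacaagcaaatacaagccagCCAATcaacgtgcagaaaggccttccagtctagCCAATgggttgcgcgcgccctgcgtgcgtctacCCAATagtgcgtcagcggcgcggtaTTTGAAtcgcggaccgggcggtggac
Ccnb1 (ENSMUSG00000041431; chr13:100786457-100786736, minus strand): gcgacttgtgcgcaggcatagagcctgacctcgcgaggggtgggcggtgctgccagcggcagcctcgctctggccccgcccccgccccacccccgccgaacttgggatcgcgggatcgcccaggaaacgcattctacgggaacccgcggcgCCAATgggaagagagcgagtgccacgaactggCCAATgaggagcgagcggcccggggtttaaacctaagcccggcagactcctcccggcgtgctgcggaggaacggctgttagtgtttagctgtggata
Bub1b (ENSMUSG00000040084; chr2:118597961-118598240, plus strand): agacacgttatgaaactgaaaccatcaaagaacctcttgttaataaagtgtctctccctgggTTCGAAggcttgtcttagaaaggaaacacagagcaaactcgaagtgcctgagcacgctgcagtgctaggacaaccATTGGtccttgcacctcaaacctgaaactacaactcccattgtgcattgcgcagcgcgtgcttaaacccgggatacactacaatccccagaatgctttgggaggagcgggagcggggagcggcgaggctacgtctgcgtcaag
Melk (ENSMUSG00000035683; chr4:44300667-44300946, plus strand): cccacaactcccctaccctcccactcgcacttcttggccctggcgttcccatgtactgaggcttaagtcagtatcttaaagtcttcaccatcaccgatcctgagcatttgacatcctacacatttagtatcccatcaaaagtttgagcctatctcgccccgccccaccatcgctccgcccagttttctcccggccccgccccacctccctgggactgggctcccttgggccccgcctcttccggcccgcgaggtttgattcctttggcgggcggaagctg
Cdc25b (ENSMUSG00000027330; chr2:131186698-131186977, plus strand): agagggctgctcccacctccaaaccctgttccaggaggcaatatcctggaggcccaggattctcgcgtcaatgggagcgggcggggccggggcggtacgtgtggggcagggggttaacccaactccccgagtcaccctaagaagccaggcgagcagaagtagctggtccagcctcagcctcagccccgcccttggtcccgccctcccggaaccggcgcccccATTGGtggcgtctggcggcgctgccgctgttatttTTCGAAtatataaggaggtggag

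Cdk1 held 2 CHR and 3 CCAAT matches, with the CHR nearest the start at position -15 and CCAAT matches at -80 and -48. Ccnb2 also held 2 and 3, the CHR near the start at position 4 and the CCAAT matches at -87, -54 and -21. Ccnb1 held 2 CCAAT matches and no CHR letters in its window. Bub1b held 2 CHR matches, 1 of them at position 40 beyond the printed stretch, and 1 CCAAT match. Melk, with the deepest fall, held no letters of either motif, and Cdc25b, which rose, held a CHR at 7 and a CCAAT at -28. The 28 members with both motifs had a median log2 fold change of -4.54 in WT cells with estradiol, and the 15 other members with a window had -4.21. These medians are a description, with no test.

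**Figure D2:**
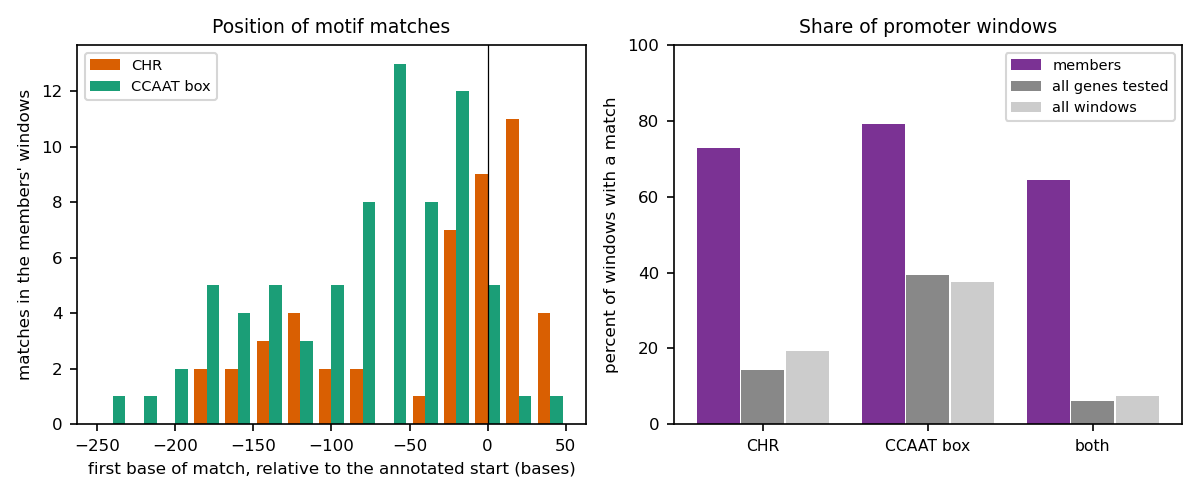
Left, positions of CHR and CCAAT matches in the 48 promoter windows of the mitotic genes, relative to the annotated start, in bins of 20 bases. Right, percent of windows with a match for the members, all genes tested and all RefSeq windows; both motifs together are in 64.6%, 6.1% and 7.5% of them.

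What was left of each transcript differed widely between members. As a percent of the mean of untreated WT cells, the members' median level was 4.10% in mutant cells with estradiol and 5-ALA, 5.225% in mutant cells with estradiol and 5.17% in WT cells with estradiol. In mutant cells with both agents 12 members lay below 2% of the untreated level and 7 above 20%, in mutant cells with estradiol 12 and 10, and in WT cells with estradiol 9 and 7. The lowest were Bub1b at 0.113% in mutant cells with both agents and 0.215% in mutant cells with estradiol, and Melk at 0.70% in WT cells with estradiol. In untreated WT cells every member reached at least 11.3 TPM, whereas 14, 9 and 11 members were below 1 TPM in mutant cells with both agents, mutant cells with estradiol and WT cells with estradiol.

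Few genes made up most of what remained. Cdca8, Smc4, Bub3, Ccnb1 and Incenp together held 52.9% of the members' summed TPM in WT cells with estradiol. In untreated WT cells the top 5 were Ccnb1, Cdca8, Top2a, Cdk1 and Smc4, with 29.4%. Cdca8 alone held 24.8% in mutant cells with both agents, 22.4% in mutant cells with estradiol, 18.6% in WT cells with estradiol and 6.77% in untreated WT cells.

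**Figure D3:**
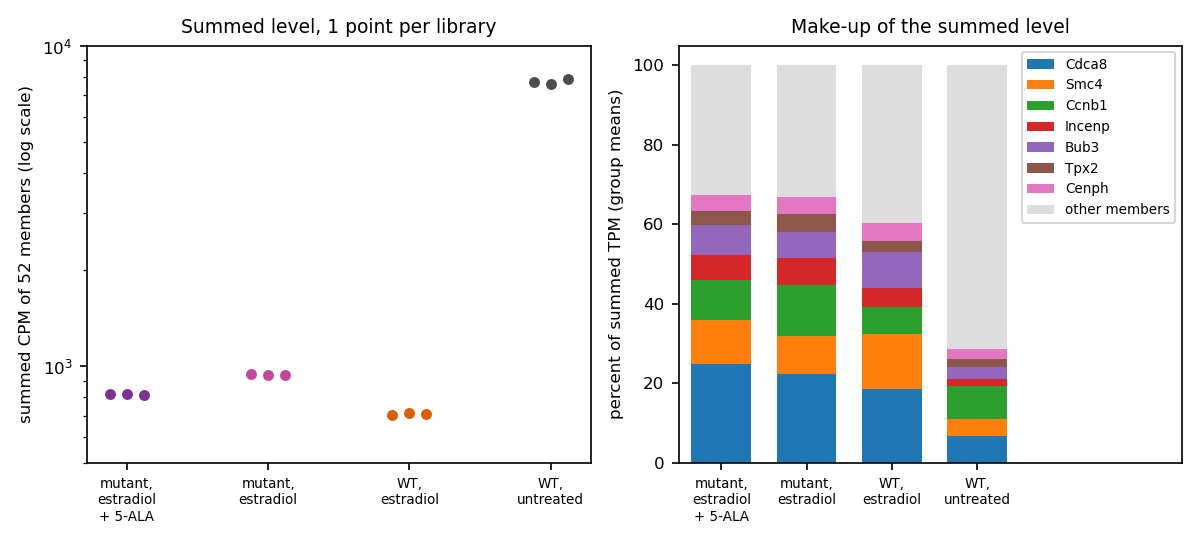
Left, summed CPM of the 52 mitotic genes in each library on a log axis; right, share of the summed TPM held by 7 members and by the rest, as group means. Untreated libraries reach 7577 to 7878 CPM and treated ones 704.9 to 945.8 CPM, and Cdca8 holds 24.8% of the TPM in mutant cells with both agents against 6.77% in untreated WT cells.

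The deposited transcript length, an average weighted by the abundance of each gene's isoforms, moved for some members. Only genes whose lengths did not overlap between the libraries of the groups were counted. In WT cells with estradiol, 6 such members were at under 0.8 of their length in untreated WT cells. Another 1 was longer by more than the inverse of 0.8. Together they were 13.5% of the members, beside 4.5% of all genes tested, a share not matched for read number. In WT libraries with estradiol the shorter members had 14 to 26 (Ttk), 37 to 76 (Bub1b) and 81 to 90 reads (Kif2c). Ncapg had 121 to 140, Prc1 197 to 268 and Nek2 292 to 366 reads there. The part of few reads in these lengths was not tested. Kif4, at 0.746 of its length in untreated WT cells, was not counted because its libraries overlapped. Birc5 had 2383 ± 32.1 bases in WT cells with estradiol against 1099.6 ± 9.6 in untreated WT cells, and Kif2c had 1584 ± 139.5 against 2704 ± 17.9 (SD, n = 3 each). Ncapg, the member with the smallest ratio, overlaps Lcorl, and Prc1, at 0.756 of its length in untreated WT cells, overlaps Rccd1.

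A wider set of 122 other mitotic genes, 121 of them tested, moved in both directions. These lists too were chosen with earlier results of these data known, so their contrast with the members is a description. With estradiol in WT cells 88 fell, 28 rose and 5 were not called, with a median log2 fold change of -1.32. Of all genes tested 46.4% fell and 43.3% rose, shares that also stand beside each list below for this comparison. Of 35 other kinetochore and checkpoint genes, 28 fell and 6 rose (median -3.14), and the largest falls were those of Ska1 at -6.61, Kntc1 at -6.34 and Trip13 at -5.92. The 6 that rose included Mad2l1bp, a checkpoint silencing protein, at 3.14, Zwint at 2.32 and Dsn1 at 0.50. The others were Cenpj at 0.54, Cenpb at 0.40 and Cenpt at 0.34. Despite its place on this list, Cenpj encodes a centriole protein. With library totals alone as the scaling Cenpb and Cenpt are not called. Of 26 other spindle and cytokinesis genes, 20 fell and 5 rose (median -2.47), led by Aspm at -6.20, Depdc1a at -6.15 and Troap at -5.74. Citron kinase (Cit), a cytokinesis protein, rose to 281 ± 4.67 CPM in WT cells with estradiol against 103 ± 3.33 CPM in untreated WT cells (SD, n = 3 each), and Chmp4b, Numa1 and Rhoa rose by 1.01, 0.69 and 0.46. Mapre1 rose by 0.23, a direction that turns with library totals alone and with TPM.

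Of 17 subunits and ubiquitin enzymes of the anaphase-promoting complex 9 fell and 6 rose (median -0.39), beside 46.4% and 43.3% of all genes tested. The activator Cdc20 and the ubiquitin-conjugating enzyme Ube2c of this complex fell, with log2 fold changes of -4.14 and -4.55. Anapc5 and Cdc23 fell, with log2 fold changes of -1.99 and -1.90; Anapc2, Fzr1, Anapc13 and Cdc27 rose by 0.98, 0.60, 0.57 and 0.55, and Anapc7 and Cdc26 rose by 0.10 and 0.07 but turn direction with library totals alone and with TPM. Fzr1 encodes CDH1, which activates the complex outside early mitosis. Cohesin, condensin II and their regulators gave 11 falls and 5 rises (median -0.47), with Cdca5 (sororin) at -4.80, Ncapg2 at -4.58, and the cohesin loader Mau2, the release factor Wapl and Nipbl at 2.04, 1.40 and 1.01. Stag2 and Esco1 rose by 0.28 and 0.19, and both turn direction with library totals alone and with TPM. Of 21 other entry kinases and phosphatases 17 fell and 4 rose (median -2.66); Pbk, Cdca3 and Cdca2 fell, with log2 fold changes of -6.72, -5.29 and -5.21. Those that rose were Cdc14b at 2.77, Nek7 at 1.801, Ensa at 0.97 and Nek9 at 0.23, the last turning direction with library totals alone and with TPM. Among the 6 MuvB and B-Myb genes, 3 fell, 2 rose and 1 was not called (median -0.11). B-Myb (Mybl2) fell, with a log2 fold change of -4.74. Lin9 and Rbbp4 fell too, to 13.0 and 685 CPM in WT cells with estradiol against 24.1 and 844.5 CPM in untreated WT cells. The MuvB subunits Lin52 and Lin37 rose by 1.23 and 1.11. All 26 genes of an S phase list fell, with a median of -3.86.

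The mutant cells with estradiol were compared with WT cells with estradiol, a comparison that asks how cells with the Alas2 mutation differ in these genes. Without untreated mutant cells, and with the number of clones not given, the mutation and other differences between the mutant and WT cells cannot be told apart. The mitotic genes moved in both directions: 22 of 52 rose and 18 fell, beside 35.1% and 33.6% of all genes tested (68.8% in either direction), and their median log2 fold change was 0.03. Scaled by library totals alone, 26 rose and 13 fell, and on log2(TPM + 1) 25 rose and 11 fell. At least 2-fold changes were seen in 4 members that rose and 6 that fell, beside 5.18% and 6.6% of all genes tested. The members' summed level was 939 to 945.8 CPM in mutant libraries with estradiol against 704.9 to 712.5 CPM in WT libraries with estradiol. Abundant members weigh most in this sum. In the same order of groups Cdca8 had means of 129.75 and 77.3 CPM, Incenp 96.1 and 48.4 CPM and Ccnb1 83.3 and 33.6 CPM. Smc4, also abundant, had 125.4 and 131.9 CPM. The WT libraries with estradiol also enter the comparison with untreated cells, so the values of the comparisons are not independent. Erythroid markers summed to 24370 to 25790 CPM in mutant cells with estradiol against 80210 to 81120 CPM in WT cells with estradiol. Progenitor markers moved as well, with a sum of 39.3 to 42.2 CPM in mutant cells with estradiol against 92.2 to 95.1 CPM in WT cells with estradiol, and megakaryocyte markers, mostly Itgb3, summed to 424.7 to 441.2 against 1851 to 1874 CPM; their part in the results was not tested.

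**Figure D4:**
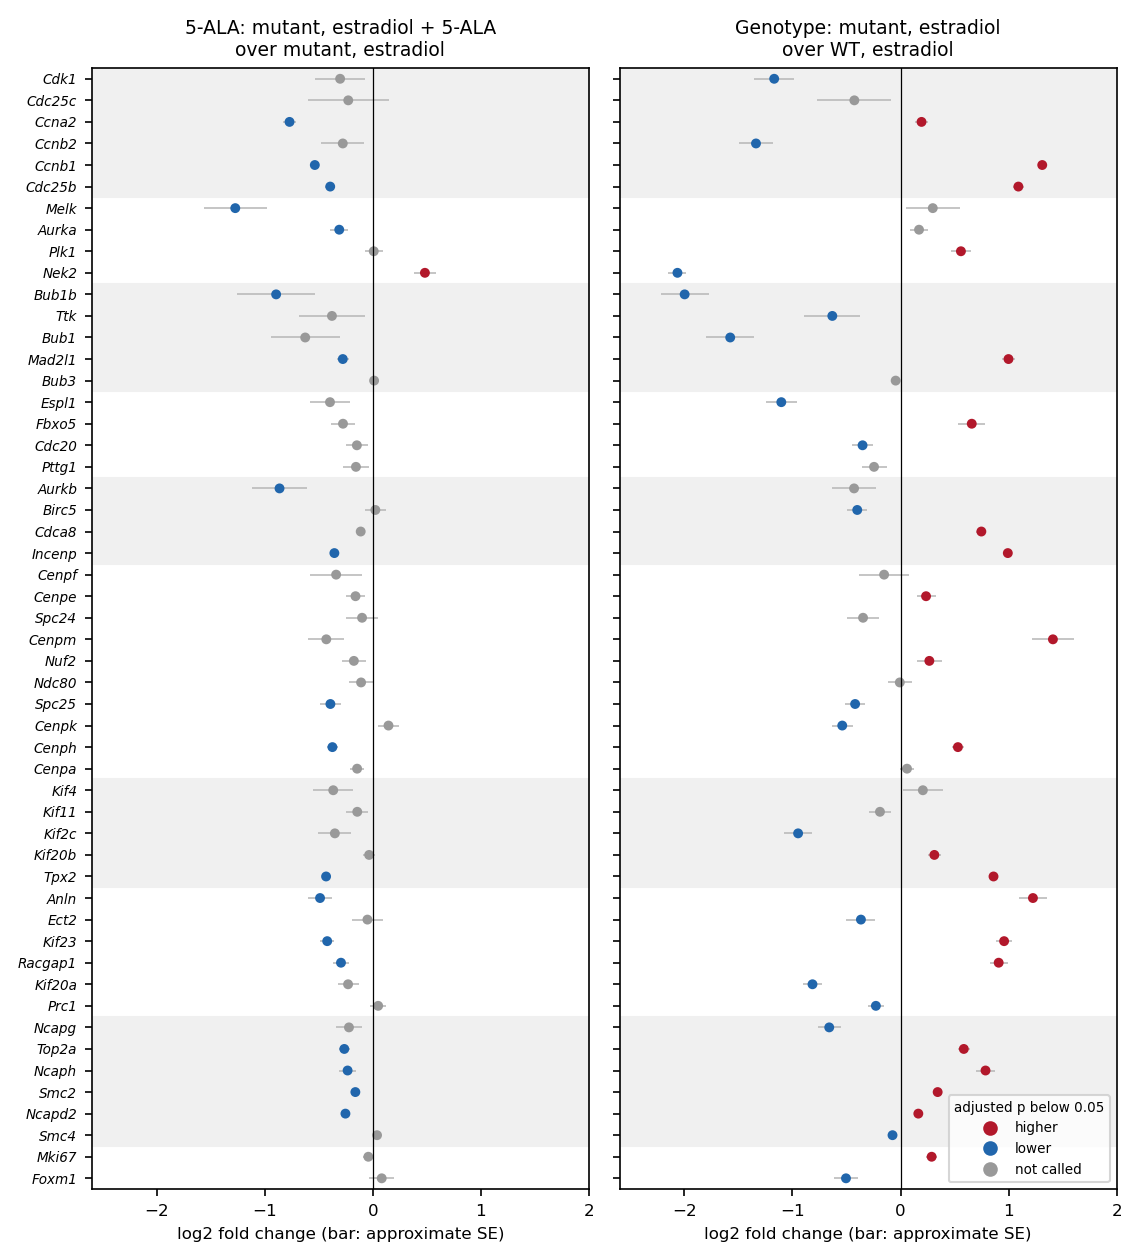
Log2 fold change of each mitotic gene for 5-ALA in mutant cells (left) and for mutant over WT cells, both with estradiol (right), in the role order of the estradiol plot; bars are the approximate SE. On the right 22 members are higher and 18 lower, from -2.06 (Nek2) to 1.41 (Cenpm); on the left 19 are lower and 1, Nek2, is higher.

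Cyclin B1 was higher in mutant cells, and CDK1 and cyclin B2 were lower. Cyclin B1 (Ccnb1) had 84.1, 83.1 and 82.7 CPM in mutant cells with estradiol against 31.9, 33.9 and 35.1 CPM in WT cells with estradiol, a 2.48-fold rise (log2 fold change 1.31 ± 0.04 SE, edgeR adjusted p = 9.68e-23). Its partner kinase Cdk1 had 0.827, 0.59 and 0.608 CPM in mutant cells with estradiol against 1.34, 1.5 and 1.58 CPM in WT cells with estradiol, a 2.25-fold fall (-1.17 ± 0.19 SE, edgeR adjusted p = 2.13e-06). Cyclin B2 (Ccnb2) fell too, with 1.02, 1.07 and 0.882 CPM in mutant cells with estradiol against 2.9, 1.98 and 2.7 CPM in WT cells with estradiol (-1.34 ± 0.16 SE). In each of these genes the libraries of the groups do not overlap, as in 41 of the 52 members and 71.7% of all genes tested. Cdc25b, the phosphatase that had risen with estradiol, was at 42.4, 44.7 and 43.5 CPM in mutant cells with estradiol against 21.1, 21 and 19.1 CPM in WT cells with estradiol (1.09 ± 0.05 SE, edgeR adjusted p = 5.16e-18).

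Other complexes also held members that rose and members that fell, as all genes tested did in similar shares. In the spindle checkpoint, Bub1b had 0.73, 0.704 and 0.243 CPM in mutant cells with estradiol against 2.48, 2.38 and 1.67 CPM in WT cells with estradiol, a 3.99-fold fall (-2.00 ± 0.22 SE, edgeR adjusted p = 2.36e-08), and Bub1 fell, with a log2 fold change of -1.58 ± 0.22 (SE). Mutant libraries with estradiol held 8 to 31 reads of Bub1b and 12 to 18 of Bub1. Mad2l1 rose, with 17.2, 16.8 and 17.6 CPM in mutant cells with estradiol against 9.1, 8.17 and 8.42 CPM in WT cells with estradiol (1.00 ± 0.06 SE). Nek2 showed the largest fall, to 2.87, 3.18 and 2.59 CPM in mutant cells with estradiol against 11.1, 12.5 and 13.1 CPM in WT cells with estradiol (-2.06 ± 0.08 SE, edgeR adjusted p = 3.76e-19). Separase (Espl1) was at 0.827, 0.885 and 1.28 CPM against 2.22, 2.11 and 2.16 CPM and Kif2c at 1.36, 1.66 and 1.76 CPM against 2.94, 2.96 and 3.65 CPM in the same order of groups, with log2 fold changes of -1.10 and -0.95. In the passenger complex Incenp rose, with 93.7, 95.4 and 99.2 CPM in mutant cells with estradiol against 48.2, 48.2 and 48.7 CPM in WT cells with estradiol (0.99 ± 0.03 SE), as did Cdca8 (0.75 ± 0.05 SE), while Birc5 fell (-0.40 ± 0.09 SE) and Aurkb was not called (-0.43 ± 0.20 SE, edgeR adjusted p = 0.0867).

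In cytokinesis, anillin (Anln) had 3.89, 3.47 and 3.35 CPM in mutant cells with estradiol against 1.83, 1.26 and 1.4 CPM in WT cells with estradiol (1.23 ± 0.13 SE), and the centralspindlin subunit Kif23 had 9.73, 9.33 and 9.34 CPM against 5.06, 4.84 and 4.59 CPM (0.96 ± 0.07 SE). The other centralspindlin subunit, Racgap1, rose by 0.91 ± 0.08 (SE), while Kif20a, Ect2 and Prc1 fell, with log2 fold changes of -0.81, -0.37 and -0.23. Among kinetochore genes Cenpm rose most, by 1.41 ± 0.20 (SE), at 0.703 TPM in WT cells with estradiol, and Cenpk and Spc25 fell, with log2 fold changes of -0.54 and -0.42. Of the condensin class Ncaph, Top2a, Smc2 and Ncapd2 rose by 0.79, 0.59, 0.34 and 0.16, and Ncapg fell, with a log2 fold change of -0.66. Smc4 and Foxm1 fell, with log2 fold changes of -0.07 and -0.50; Smc4 turns direction with library totals alone and with TPM, and Foxm1 with TPM. Ttk and Cdc20 fell, with log2 fold changes of -0.63 and -0.35, and Tpx2, Fbxo5, Plk1 and Cenph rose by 0.86, 0.66, 0.56 and 0.53. The remaining rises were those of Kif20b at 0.31, Mki67 at 0.29, Nuf2 at 0.27, Cenpe at 0.24 and Ccna2 at 0.19.

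Some calls were lost when 1 library was left out, in several cases with nearly the same fold change. Without WT with estradiol replicate 2, Ttk had a log2 fold change of -0.34 (edgeR adjusted p = 0.406), and its call was also lost without mutant with estradiol replicate 1 (-0.57), 2 (-0.70) or 3 (-0.62) or WT with estradiol replicate 3 (-0.62). Smc4 was not called without any 1 of the 6 libraries, with values of -0.07 to -0.06. Cenpe was not called without mutant with estradiol replicate 1 (0.24) or 2 (0.19), or WT with estradiol replicate 2 (0.25) or 3 (0.20). Nuf2 was not called without mutant with estradiol replicate 1 (0.24) or 2 (0.18), or WT with estradiol replicate 1 (0.26) or 2 (0.25). Prc1 lost its call without mutant with estradiol replicate 1 (-0.18) or WT with estradiol replicate 1 (-0.19), Ect2 without mutant with estradiol replicate 3 (-0.26) or WT with estradiol replicate 1 (-0.27), and Ccna2 without mutant with estradiol replicate 2 (0.12). Other settings also ended calls: with library totals alone and on log2(TPM + 1), Cdc20 had -0.20 and -0.28, Prc1 -0.07 and -0.03, and Ect2 -0.21 and -0.10, and on log2(TPM + 1) Bub1 had -0.15 and Ncapg -0.33. Cenpe and Nuf2 were not called with RLE size factors (0.22 and 0.25), the filter at 10 CPM (0.21 and 0.24), DESeq2 (0.22 and 0.25) or the 2 groups alone (0.24 and 0.27). Nuf2 was also not called with the replicate block (edgeR adjusted p = 0.0556). Ttk was not called with library totals alone (-0.48), the filter at any count (-0.60) or the 2 groups alone (-0.64), Ect2 with the 2 groups alone (-0.36), or Smc4 with the filter at any count (-0.05). The 12 members not called in this comparison had log2 fold changes of -0.43 (Aurkb) to 0.30 (Melk), among them Bub3 at -0.05 ± 0.03 and Ndc80 at -0.01 ± 0.11 (SE).

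**Figure D5:**
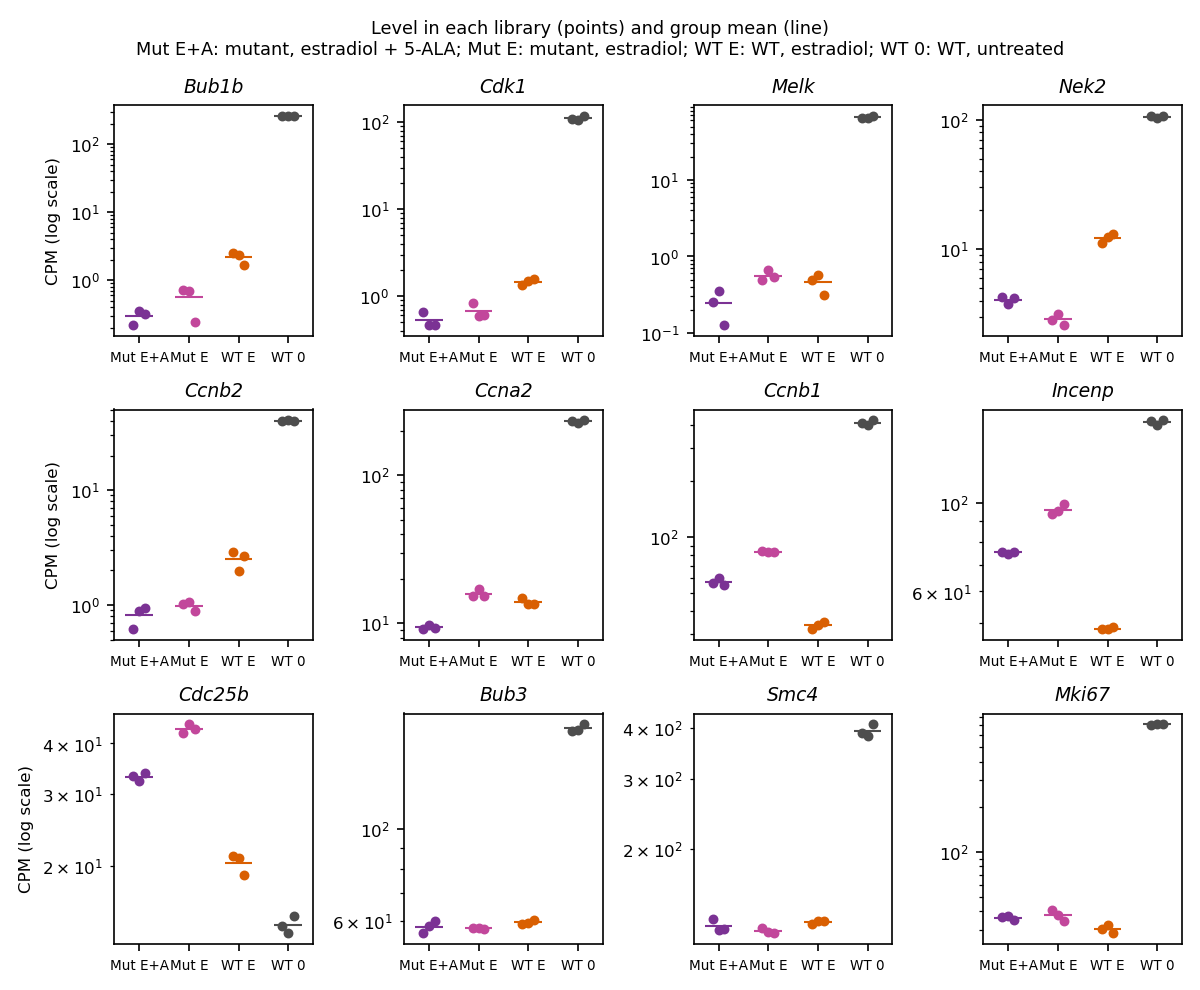
CPM of 12 mitotic genes in each library on log axes that differ between genes; lines are group means. Cdk1, Ccnb2, Bub1b and Nek2 are lower with estradiol in mutant cells than in WT cells, Ccnb1, Incenp and Cdc25b are higher, and Bub3 and Smc4 lie close together in the 3 treated groups.

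Other mitotic genes also went both ways in mutant cells with estradiol against WT cells with estradiol, in a comparison in which 35.1% of all genes tested rose and 33.6% fell. Of 35 kinetochore and checkpoint genes 13 rose and 11 fell, of 26 spindle and cytokinesis genes 9 and 8, of 17 genes of the anaphase-promoting complex 9 and 6, of 16 cohesin and condensin II genes 5 and 8, and of 21 entry kinases and phosphatases 6 and 10. Of the 6 MuvB and B-Myb genes 4 fell and 2 were not called. Of the genes named above for their rise with estradiol, 4 are given here, chosen after their values were seen: Cit rose further by 1.17, and Mad2l1bp, Cdc14b and Dsn1 fell, with log2 fold changes of -1.03, -0.80 and -0.62. The S phase list gave 9 rises and 13 falls (median -0.10).

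Adding 5-ALA to mutant cells with estradiol lowered some of the mitotic genes, mostly by small steps. Of the 52 members 19 fell and 1 rose, beside 21% and 21.6% of all genes tested, and 32 were not called. With library totals alone 32 fell, and on log2(TPM + 1) 33 fell, scalings under which the median of all genes was -0.09 and -0.15 here. The median log2 fold change was -0.26, beside 0.01 for all genes tested, and 1 member, Melk, fell at least 2-fold, beside 0.537% of all genes tested (1.77% rose as far). Falls also outnumbered rises outside the members. Of 121 other mitotic genes tested 38 fell and 17 rose (median -0.08), and of 26 S phase genes 9 fell and 4 rose (median -0.12). The members' summed level was 811.0 to 819 CPM in mutant libraries with both agents against 939 to 945.8 CPM in mutant libraries with estradiol. Mutant cells with estradiol also enter the comparison with WT cells, so the values of these comparisons are not independent. Erythroid markers summed to 67830 to 73070 CPM in mutant cells with both agents and 24370 to 25790 CPM in mutant cells with estradiol, and megakaryocyte markers to 724.8 to 741.7 and 424.7 to 441.2 CPM; how this bears on the result was not tested.

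Cyclin A2 (Ccna2) had 9.09, 9.81 and 9.23 CPM in mutant cells with both agents against 15.3, 17 and 15.2 CPM in mutant cells with estradiol, a 1.71-fold fall (-0.77 ± 0.06 SE, edgeR adjusted p = 1.71e-11). Cyclin B1 (Ccnb1) had 56.6, 60.1 and 55.5 CPM in mutant cells with both agents against 84.1, 83.1 and 82.7 CPM in mutant cells with estradiol (-0.54 ± 0.03 SE, edgeR adjusted p = 1.23e-13). Neither gene's groups overlap, as in 23 of the 52 members and 49.1% of all genes tested. Cdc25b was at 33.3, 32.4 and 33.8 CPM in mutant cells with both agents against 42.4, 44.7 and 43.5 CPM in mutant cells with estradiol (-0.39 ± 0.05 SE), and Cdk1 was not called (-0.30 ± 0.23 SE, edgeR adjusted p = 0.405). Anillin (Anln) had 2.16, 2.55 and 2.79 CPM in mutant cells with both agents against 3.89, 3.47 and 3.35 CPM in mutant cells with estradiol (-0.49 ± 0.11 SE). Tpx2 had 51.4, 47.5 and 48.7 CPM against 67.6, 65.4 and 66.6 CPM and Kif23 6.53, 7.4 and 7.16 CPM against 9.73, 9.33 and 9.34 CPM in the same order of groups, with log2 fold changes of -0.43 and -0.42. The groups of Anln, Tpx2 and Kif23 do not overlap.

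Nek2 went the other way. It had 4.26, 3.75 and 4.17 CPM in mutant cells with both agents against 2.87, 3.18 and 2.59 CPM in mutant cells with estradiol, a 1.4-fold rise (0.48 ± 0.10 SE, edgeR adjusted p = 3.21e-04). The 3 libraries with 5-ALA lie above the 3 without it. Melk, at 0.252, 0.354 and 0.126 CPM in mutant cells with both agents against 0.486, 0.658 and 0.547 CPM in mutant cells with estradiol, had the largest fall (-1.27 ± 0.29 SE, edgeR adjusted p = 9.23e-04), on 4 to 10 reads a library with both agents and 10 to 29 with estradiol. The other members that fell were Aurkb (-0.86), Bub1b (-0.89), Spc25 (-0.39), Cenph (-0.37), Incenp (-0.36), Aurka (-0.31), Racgap1 (-0.29), Mad2l1 (-0.28), Top2a (-0.26), Ncapd2 (-0.25), Ncaph (-0.23) and Smc2 (-0.16). The call of Bub1b was lost without mutant with both agents replicate 1 (-0.73), 2 (-1.04) or 3 (-0.95), or mutant with estradiol replicate 1 (-0.78) or 2 (-0.53), that of Aurkb without mutant with both agents replicate 2 (-0.62), and that of Ncaph without mutant with both agents replicate 1 (-0.20) or 3 (-0.17) or mutant with estradiol replicate 2 (-0.19). Bub1b was also not called on log2(TPM + 1) (-0.21), with the replicate block (edgeR adjusted p = 0.0801) or with the 2 groups alone (-0.90), nor Ncaph with the 2 groups alone (-0.24). The 4 genes that time anaphase were among those not called, with log2 fold changes of -0.40 (Espl1) to -0.15 (Cdc20).

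Mutant cells with both agents still differed from WT cells with estradiol, in a comparison that shares each group with another. Of the 52 members 18 rose and 23 fell, beside 33.3% and 29% of all genes tested (62.3% in either direction), with a median log2 fold change of -0.15. At least 2-fold, 0 rose and 10 fell, beside 3.59% and 4.18% of all genes tested, and the groups did not overlap for 39 members, beside 65.9%. Progenitor markers summed to 42.6 to 46.9 CPM in mutant cells with both agents against 92.2 to 95.1 CPM in WT cells with estradiol, and megakaryocyte markers to 724.8 to 741.7 against 1851 to 1874 CPM; their part in the results was not tested. Bub1b had 0.216, 0.354 and 0.314 CPM in mutant cells with both agents against 2.48, 2.38 and 1.67 CPM in WT cells with estradiol (-2.89 ± 0.26 SE, edgeR adjusted p = 1.13e-09), and Bub1 0.325, 0.39 and 0.157 CPM against 1.37, 1.53 and 0.99 CPM (-2.20 ± 0.25 SE). Ccnb2, Nek2, Espl1, Cdk1, Kif2c, Aurkb, Kif20a and Ttk were the others that fell at least 2-fold, with log2 fold changes of -1.62, -1.58, -1.50, -1.47, -1.30, -1.29, -1.04 and -1.01. Libraries of mutant cells with both agents held 6 to 10 reads of Bub1b, 5 to 11 of Bub1 and 13 to 18 of Cdk1. Aurkb had 7 to 15 and Ttk 7 to 13 reads there, so these folds are imprecise, while Nek2 had 106 to 133.

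The 18 members that stood higher in mutant cells with both agents than in WT cells with estradiol were led by Cenpm (0.98), Ccnb1 (0.77), Anln (0.74), Mad2l1 (0.72) and Cdc25b (0.70). Incenp and Cdca8 stood higher by 0.64 each, Racgap1, Plk1, Ncaph and Kif23 by 0.61, 0.57, 0.55 and 0.54, and Tpx2, Fbxo5, Top2a, Kif20b, Mki67, Smc2 and Cenph by 0.43, 0.38, 0.32, 0.28, 0.25, 0.18 and 0.16. Ccnb1, for example, had 56.6, 60.1 and 55.5 CPM in mutant cells with both agents against 31.9, 33.9 and 35.1 CPM in WT cells with estradiol. Single libraries ended some calls: Fbxo5 without WT with estradiol replicate 3 (0.23), Cenph without mutant with both agents replicate 2 (0.15) or WT with estradiol replicate 2 (0.12), Melk without mutant with both agents replicate 3 (-0.63) or WT with estradiol replicate 2 (-0.78), and Ttk without mutant with both agents replicate 3 (-0.76) or WT with estradiol replicate 2 (-0.72). Kif11 and Ect2 were not called without mutant with both agents replicate 3 (-0.24 and -0.27) or WT with estradiol replicate 1 (-0.24 and -0.33). Prc1 was not called without mutant with both agents replicate 3 (-0.13) or WT with estradiol replicate 1 (-0.15) or 3 (-0.15), nor Spc24 without mutant with both agents replicate 1 (-0.38) or 3 (-0.44) or WT with estradiol replicate 2 (-0.40) or 3 (-0.43). On log2(TPM + 1), Aurkb (-0.37), Ncapg (-0.33), Melk (-0.20), Prc1 (-0.12), Foxm1 (-0.10), Cenph (0.085) and Top2a (0.16) were not called. Prc1 and Spc24 were not called with library totals alone (-0.13 and -0.39), the filter at any count (-0.17 and -0.43) or the 2 groups alone (-0.18 and -0.45), Melk and Fbxo5 with the 2 groups alone (-0.97 and 0.39), or Cenph with DESeq2 (0.13).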

How the data were processed

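RNA of 12 libraries, 3 per group, was made with TRIzol and a TruSeq kit, per the labels. The genome build in the submitters' processing notes is mm10, and the tools named there are RSEM 1.2.20, Bowtie 1.1.1 and CASAVA 1.8.2. The sources used here give neither annotation, read length nor strand setting. Per the file headers, each deposited table gives RSEM expected counts, TPM, FPKM and transcript lengths. FPKM values were not used. Symbols came from GENCODE M21 (24746 identifiers matched). The members and gene lists were chosen with earlier results of these data known.

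Expected counts were rounded, filtered with filterByExpr, scaled by TMM and fitted as 4 group means over 12 libraries with edgeR 4.0.16 in R 4.3.3 (quasi-likelihood F test, robust, Benjamini-Hochberg over 12115 genes, call at 0.05). The common biological coefficient of variation was 0.0334. Each SE was approximated by dividing the size of the log2 fold change by the root of F. The fit was tested on simulated data. Library totals of 20309085 to 43548387 expected counts limit the precision of members with few reads. TPM served for levels between genes. Fold changes on log2(TPM + 1) are on that scale and are smaller for low genes.

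Alternatives were size factors by RLE, library totals alone, other filters, DESeq2 1.42.0, limma 3.58.1 on log2(TPM + 1), the 2 groups alone, a replicate block and leaving out each library; leaving out members with overlapping exons was chosen after seeing the data. RSEM divides shared reads by likelihood, and 10 members overlap exons of another gene: Ccna2 with Exosc9, Cdc25b with Spef1, Cdc25c with Gm3550, Cdc20 with Elovl1, Cenpk with Ppwd1, Kif4 with Pdzd11, Kif20a with Cdc23, Prc1 with Rccd1, Ncapg with Lcorl and Foxm1 with Tex52.

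Values in every library were due for the largest and smallest change in each of 10 role classes, the 6 largest rises and 6 largest falls per comparison of treated groups (called, groups not overlapping, mean of at least 1 CPM), members against the majority of calls and the member highest in TPM in untreated cells. From each other list came the 3 largest changes with at least 1 CPM and the genes against the majority. Where calls divided nearly evenly, some members against the majority are given by fold change alone, a limit set after seeing the values. Promoter motifs were counted on both strands in RefSeq windows (GRCm38.p6).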

Additional observations from a re-analysis of the deposited data

How the results depend on the processing

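The count of 51 members lower and 1 higher in WT cells with estradiol held under every alternative run on all 52 members and without any 1 library (51 to 51 lower, 1 to 1 higher); without the 10 members with overlapping exons, chosen after seeing the data, 0 were higher, since Cdc25b is one of them. The median log2 fold change there was -4.61 with library totals alone, -4.14 with genes at 10 CPM in 3 libraries, -4.05 on log2(TPM + 1) and -4.44 without the overlapping members, and -4.29 to -4.22 without single libraries. In mutant against WT cells with estradiol the median was 0.18 with library totals, 0.16 on TPM and 0.17 without the overlapping members, and 11 members were lower on TPM. Without single libraries 19 to 23 were higher and 15 to 18 lower (median -0.01 to 0.11). For 5-ALA in mutant cells 32 members were lower with library totals and 33 on TPM, 18 to 20 without single libraries (1 to 1 higher, median -0.29 to -0.24). In mutant cells with both agents against WT cells with estradiol those ranges were 17 to 18 higher, 17 to 24 lower and -0.19 to -0.12. In the first 3 comparisons the median of all genes was -0.03, -0.01 and 0.01 in the main fit. It was -0.37, 0.14 and -0.09 with library totals and -0.23, 0.125 and -0.15 with TPM, which moves these counts. Of 1140 recomputed values of single named genes 1086 kept direction and call, 39 lost the call and 15 turned. The lowest and the highest value of a gene without 1 library were both labelled by the weakest of those runs. The 8 gene results that lost a call there therefore count under both. Those that turned, with library totals and with TPM, were Mapre1 (-0.11, -0.026), Anapc7 (-0.24, -0.20), Cdc26 (-0.27, -0.50), Stag2 (-0.060, -0.20), Esco1 (-0.15, -0.13) and Nek9 (-0.11, -0.057) with estradiol in WT cells, and Smc4 (0.079, 0.093) and, with TPM, Foxm1 (0.24) in mutant cells. Same-numbered libraries did not deviate together (r of -0.104 to 0.0669 over 18 pairs); with replicate number as a block, the members' counts were 51 and 1, 21 higher and 18 lower, 1 and 20, and 18 and 23. Members under 1 CPM rest on few reads, and differences between treated groups in them are imprecise.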
